A study of Drosophila melanogaster with 6 samples.

Results

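Antisense RNA genes are noncoding genes that the fly annotation places on the strand opposite to another gene, and whose symbols begin with asRNA. The 146 genes described here were all those of the 500 listed antisense RNA genes whose mean over the 6 libraries reached 1 CPM (a gene's counts as a share of its library's total, times 1e6). Of the other 354, 46 were at 0 in every library. The threshold was set on the level over all libraries, so levels are given as a description. No test between groups entered the threshold, but a gene high in 1 group only could reach it through that group. Just inside the threshold lay asRNA:CR46066 at 1.03 CPM, asRNA:CR46134 at 1.02 CPM and asRNA:CR45124 at 1.01 CPM. Just outside it lay asRNA:CR44969 at 0.997 CPM, asRNA:CR46135 at 0.988 CPM and asRNA:CR45686 at 0.925 CPM.

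The libraries came from total RNA of Drosophila S2 cells, an embryonic line that resembles the phagocytic blood cells of the fly, and ribosomal RNA had been depleted. In 3 libraries the cells were under RNA interference against Brr2, the helicase that unwinds U4 from U6 snRNA before splicing, and in 3 libraries they were wild type by label under a control RNA interference whose target is not given. Per the labels' protocols, cells took up 8 μg of double-stranded RNA during 30 min in serum-free medium, although the titles carry the prefix sh. The question of the study was the reach of Brr2 in circular RNA formation, and these values per gene do not separate circular, spliced and unspliced RNA. The labels do not call the replicates separate cultures, and p-values therefore reflect a spread among libraries that may be technical only.

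An antisense RNA can pair with the transcript of the other strand. In flies, overlapping transcripts from both strands are a source of double-stranded RNA that Dicer-2 cuts into endogenous small interfering RNAs, which are loaded into AGO2. Antisense transcription can also interfere with transcription of the other strand, and many unstable noncoding transcripts are removed by the nuclear RNA exosome. No function is given in the files for any of the 146 genes.

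The libraries held 127654975 to 147620403 estimated counts each. The Brr2 gene, listed as l(3)72Ab, was at 108.5, 94.0 and 99.8 CPM in knockdown libraries and at 158.1, 198.5 and 221.1 CPM in control libraries, and thus at 0.523 of the control level (log2 -0.93, SE 0.155, edgeR adjusted p = 0.0111). Here and below, CPM are scaled by TMM, a scaling that sets aside the most changed features, unless called unscaled. Of 11 hemocyte markers 9 were at 1 CPM or more (Hml and NimC1 were lower), with summed levels of 1082 to 2116 CPM in knockdown and 2315 to 3353 CPM in control libraries. These sums rested largely on vkg, with means of 561.4 CPM in knockdown and 1034 CPM in control libraries, and Col4a1, with 459.5 and 929.3 CPM. The markers did not move together. Pxn (log2 -2.75, adjusted p = 0.00423) and the matrix gene Ppn (log2 -1.82, adjusted p = 0.0256) fell. He alone passed as higher (log2 3.26, adjusted p = 0.00903), from a mean of 0.322 CPM in control libraries. Col4a1, vkg, eater and crq had log2 values of -1.02, -0.88, -0.84 and -0.34 and did not pass. Neither did the transcription factor gene srp (log2 -0.13, adjusted p = 0.577), ush (0.02), or Hml (0.80) and NimC1 (1.24). Of 10 markers of neurons, muscle, germ line, ovarian soma and fat body 3 (elav, brp and Mef2) were at 1 CPM or more, with sums of 53.4 to 59.6 CPM in knockdown and 60.6 to 67.7 CPM in control libraries, and 0 of the 10 were at 0 in every library. The part of these markers in the results below was not tested. In RNA from whole cultures, fewer cells with a transcript and less of it per cell cannot be told apart. Transposon copies held 36.3% ± 0.52 of the counts in knockdown and 21.8% ± 2.21 in control libraries (SD, n = 3 each), which lowers shares of all counts for other features. 

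Every one of the 146 genes overlapped a gene on the opposite strand in annotation BDGP6.54, which is used here for all positions, and 35 overlapped more than 1. For each, the opposite-strand gene with the longest overlap is called its sense gene. There were 144 distinct sense genes, and in 144 of the 146 pairs the sense gene was protein-coding. In 64 pairs the antisense gene lay inside the sense gene and in 26 the sense gene lay inside the antisense gene. In 40 pairs the overlap held the starts of both genes (start to start) and in 16 their ends (end to end). At the median, 66.8% of an antisense gene's exon bases lay over exons of its sense gene, and 1 antisense gene had no such exon overlap. Exonic lengths ran from 291 to 15809 bases. No intron was annotated in 68 of the genes, 1 intron in 50, and 2 to 4 introns in 28.

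The use of strand in counting is not stated in the sources used here. Without strand, reads from an antisense gene and its sense gene cannot be told apart, so each level below is uncertain where the pair overlaps. For unspliced RNA this holds over introns as well as exons. A low overlap of exons therefore does not mean that a pair shares no reads. One library stood apart in the pair of asRNA:CR45926 (chromosome 2R, 23905334 to 23906700, plus strand, 1 intron) and Nap1, a histone chaperone gene that encloses it. The antisense gene was at 93.5, 88.8 and 99.4 CPM in knockdown libraries and at 80.7 and 76.2 CPM in control replicates 1 and 2, and it was listed at 0 in control replicate 3. Nap1 was at 160.8, 133.0 and 158.4 CPM in knockdown libraries, at 134.2 and 118.1 CPM in control replicates 1 and 2, and at 292.9 CPM in control replicate 3. The antisense gene thus held 36.8%, 40.0% and 38.6% of the pair's counts in knockdown libraries and 37.6%, 39.2% and 0% in control libraries. The sum of the pair was 254.3, 221.8 and 257.7 CPM in knockdown libraries, against 214.8, 194.3 and 292.9 CPM in control libraries, so the library with the antisense gene at 0 had the highest sum. The part of read assignment in these values was not tested. The antisense gene did not pass the test (log2 0.84, SE 1.52, edgeR adjusted p = 0.728). The value was 5.4 with limma voom (adjusted p = 0.232) and 1.78 with a replicate block (adjusted p = 0.558). Without control replicate 3 its log2 fold change was 0.27 (adjusted p = 0.169), while the summed pair over all 6 libraries gave 0.06 (adjusted p = 0.826).

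**Figure D1:**
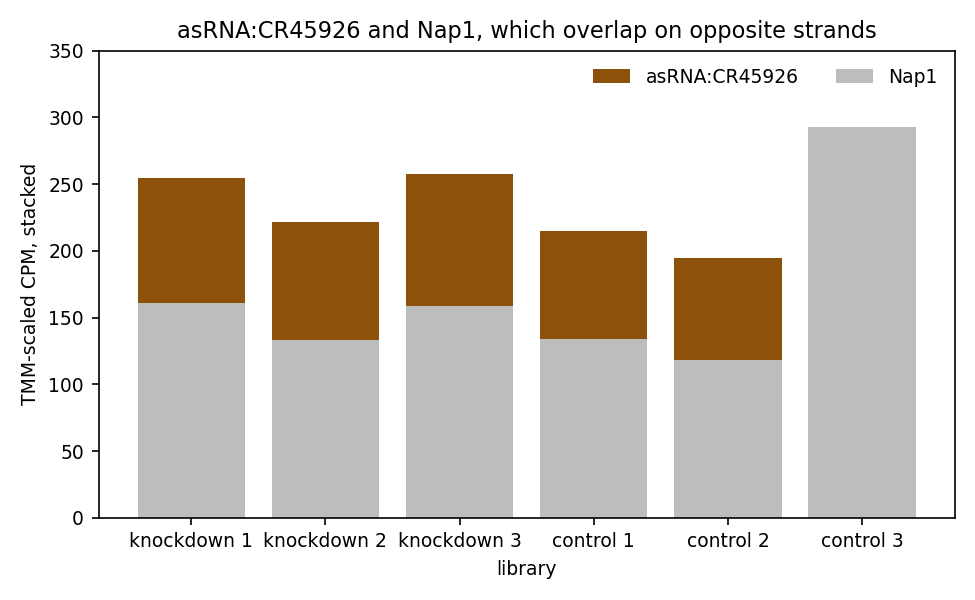
Scaled CPM of asRNA:CR45926 (upper, brown) stacked on Nap1 (lower, grey) in each of the 3 knockdown and 3 control libraries. The antisense gene is absent from the bar of control replicate 3, where Nap1 stands at 292.9 CPM against 118.1 to 160.8 CPM in the other libraries.

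The 6 antisense genes with the highest mean level held 31.4% of the counts of all 146. Besides asRNA:CR45926 these were asRNA:CR45778, asRNA:CR45874, asRNA:CR46485, asRNA:CR44029 and asRNA:CR44179. The median level over the 146 was 3.03 CPM. On the unscaled CPM of the level threshold, 27 genes were at 10 CPM or more and 44 were under 2 CPM.

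asRNA:CR45778 (chromosome 2L, 11011162 to 11012135, minus strand, no intron) was at 53.5, 62.7 and 73.4 CPM in knockdown libraries, against 98.4, 97.7 and 131.1 CPM in control libraries. It fell to 0.579 of the control level (log2 -0.79, SE 0.176, edgeR adjusted p = 0.0256), and the groups did not overlap. It encloses dUTPase, whose enzyme removes dUTP from the nucleotide pool, and 84.6% of its exon bases lay over exons of that gene. dUTPase was lower than the antisense gene, at 0.477, 1.91 and 1.14 CPM in knockdown and 8.80, 8.04 and 9.61 CPM in control libraries, and it fell as well (log2 -2.90, SE 0.463, adjusted p = 0.0102). The log2 ratio of asRNA:CR45778 to dUTPase was higher in knockdown libraries, at 6.80, 5.03 and 6.0, than in control libraries, at 3.48, 3.60 and 3.77 (exact 2-sided permutation p = 0.1, the smallest that 3 against 3 allows). Summed, the pair fell too (log2 -0.87, adjusted p = 0.0184). Over the whole set, 145 pairs had a level for both genes, and in 50 pairs the log2 ratio had no overlap between groups. Here and below, such a ratio does not by itself set a pair apart. The call of asRNA:CR45778 was lost without knockdown replicate 1 or 2 or control replicate 1 or 2 (adjusted p of 0.0573 to 0.0936).

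The other 4 of the highest did not pass the test. asRNA:CR45874, which lies inside the ribosomal protein gene RpS9, was at 60.6, 49.7 and 54.6 CPM in knockdown and 77.8, 59.3 and 50.5 CPM in control libraries (log2 -0.19, adjusted p = 0.499). Its log2 ratio to RpS9 stayed between -4.63 and -4.50 in knockdown libraries and between -4.83 and -4.69 in control libraries (exact p = 0.1). asRNA:CR46485, which encloses the juvenile hormone epoxide hydrolase gene Jheh2, averaged 58.1 ± 7.22 CPM in knockdown and 57.2 ± 7.57 CPM in control libraries (SD, n = 3 each; log2 0.02, adjusted p = 0.932), and the sign of that change turned under several alternatives. asRNA:CR44179 averaged 36.0 ± 2.25 CPM in knockdown and 39.1 ± 2.45 CPM in control libraries (log2 -0.12, adjusted p = 0.498), while CG5112, which it encloses and whose exons cover 91.2% of its exon bases, was listed at 0 in all 6 libraries. asRNA:CR44029, on chromosome 4 inside the synaptic vesicle priming gene unc-13, was at 59.0, 47.3 and 46.4 CPM in knockdown and 49.4, 42.7 and 29.2 CPM in control libraries (log2 0.33, adjusted p = 0.300). Its sense gene unc-13 rose (log2 0.92, SE 0.174, adjusted p = 0.0158), and their log2 ratio changed by -0.56, with groups that overlapped (exact unpaired p = 0.2), and was lower in the knockdown library of each same-numbered pair.

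Between knockdown and control, 27 of the 146 antisense genes passed the test, 15 higher and 12 lower, or 18.5% of them (edgeR quasi-likelihood test, Benjamini-Hochberg adjusted p under 0.05 over 14167 features). Over all 11590 genes tested 17.7% passed, 8.05% higher and 9.63% lower, so the share of antisense genes that passed was near that of all genes. All 27 showed no overlap between groups. Over the whole set 61 antisense genes had no overlap between groups, or 41.8%, with 30 higher and 31 lower in knockdown. Of all genes tested 41.8% had none, 20.1% with knockdown above control and 21.7% below. The median log2 fold change was 0.00 for antisense genes and -0.02 for all genes tested. Of the 15 that rose 12 rose at least 2-fold, and of the 12 that fell 9 fell at least 2-fold. The 119 that did not pass had log2 fold changes from -1.99 to 1.79. When libraries were scaled by total counts alone, which shifted the log2 fold changes of all genes by a median of -0.34, 12 were higher and 32 lower, against 29.0% of all genes called. With upper quartile scaling, which shifted them by 0.12, 19 were higher and 9 lower, against 17.6% of all genes called.

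On the unscaled CPM of the level threshold, 18 genes had a mean that reached 1 CPM in 1 group only, and 7 of these were among the 27, so their passing was favoured by the choice. They were asRNA:CR45133, asRNA:CR43868, asRNA:CR45343, asRNA:CR44168, asRNA:CR44047 and asRNA:CR43906, which rose, and asRNA:CR46029, which fell. Among the 128 genes with a mean of at least 1 unscaled CPM in each group 20 passed, 9 higher and 11 lower, or 15.6%. Leaving out a library lowered the count to 10 without knockdown replicate 1, 13 without knockdown replicate 3, 11 without control replicate 1 and 12 without control replicate 2. The share of all genes called in those fits is not given here. In each of the 6 fits that left out 1 library, 8 of the 27 kept their call, asRNA:CR45133, asRNA:CR43868, asRNA:CR43730, asRNA:CR45195 and asRNA:CR44168 higher and asRNA:CR44431, asRNA:CR45968 and asRNA:CR45350 lower.

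**Figure D2:**
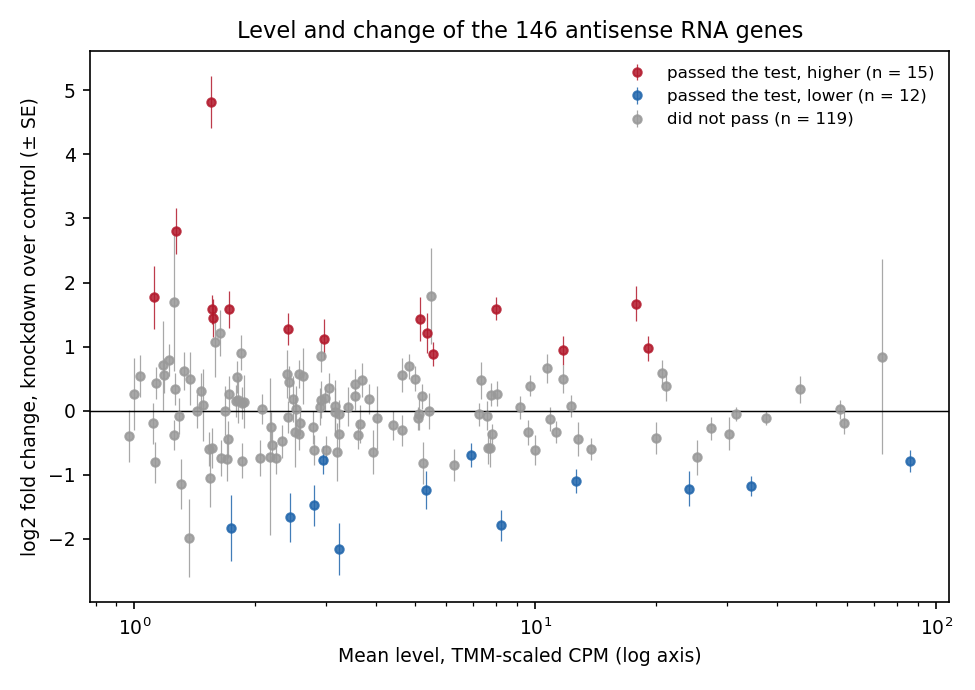
Each point is 1 of the 146 antisense RNA genes, with its mean scaled CPM on a log axis and its log2 fold change (knockdown over control) with SE. The 15 genes that rose and the 12 that fell are spread over low and high levels, and the highest change is the 4.82 of asRNA:CR45133.

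Of the 8 largest increases, all but those of asRNA:CR43730 and asRNA:CR45195 were in genes that reached 1 unscaled CPM in knockdown only. The level threshold favoured large increases in those genes, and with them higher ratios to their sense genes in knockdown libraries. This holds for every ratio of such a gene given below. The largest increase was that of asRNA:CR45133 (chromosome 2R, 10152717 to 10154345, plus strand, 3 introns), which lies inside KCNQ, a voltage-gated potassium channel gene. It was at 4.01, 1.75 and 3.23 CPM in knockdown libraries, against 0.105, 0.0931 and 0.117 CPM in control libraries. The lowest knockdown library stood far above the highest control library. The log2 fold change was 4.82 (SE 0.408, adjusted p = 0.00239), or 28.3-fold, from 15, 13 and 19 counts in control libraries. KCNQ rose too, with 30.4, 20.5 and 25.3 CPM in knockdown and 9.62, 9.69 and 7.84 CPM in control libraries (log2 1.49, SE 0.183, adjusted p = 0.00522). The antisense gene had the larger change: its log2 ratio to KCNQ was -2.92, -3.55 and -2.97 in knockdown libraries and -6.47, -6.65 and -6.03 in control libraries (difference 3.24, no overlap, exact p = 0.1). 

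asRNA:CR43868 (chromosome 3L, 12498487 to 12500307, plus strand, 3 introns) lies inside CG10638 and was at 2.75, 1.48 and 2.45 CPM in knockdown and 0.238, 0.380 and 0.332 CPM in control libraries. It rose 7.01-fold (log2 2.81, SE 0.357, adjusted p = 0.00581). CG10638, at a far higher level, averaged 273.8 ± 62.7 CPM in knockdown and 67.1 ± 14.7 CPM in control libraries (log2 2.03, SE 0.233, adjusted p = 0.00422). The log2 ratio of the pair was 0.76 higher in knockdown libraries, with no overlap (exact p = 0.1). 

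In 3 further pairs both genes rose and their ratio overlapped between groups. asRNA:CR43730 (chromosome 2R, 16288927 to 16291474, minus strand, 4 introns) encloses JhI-26, a gene named for its induction by juvenile hormone. It was at 30.8, 21.5 and 29.2 CPM in knockdown and 9.81, 10.3 and 5.45 CPM in control libraries (log2 1.67, SE 0.27, adjusted p = 0.0104). JhI-26 was at 63.3, 46.5 and 54.3 CPM in knockdown and 18.9, 18.4 and 9.62 CPM in control libraries (log2 1.81, SE 0.272, adjusted p = 0.00875). Control replicate 3 was the lowest library for both. Their log2 ratio was -1.04, -1.11 and -0.90 in knockdown libraries and -0.95, -0.84 and -0.82 in control libraries (exact unpaired p = 0.2), and it was lower in the knockdown library of each same-numbered pair. asRNA:CR45195 (chromosome 3R, 10876834 to 10877783, minus strand, 1 intron), inside the sorbitol dehydrogenase gene Sodh-2, was at 14.2, 10.3 and 11.5 CPM in knockdown and 3.67, 4.24 and 4.04 CPM in control libraries (log2 1.59, SE 0.179, adjusted p = 0.00405). Sodh-2 averaged 9.46 ± 2.02 CPM in knockdown and 2.83 ± 0.952 CPM in control libraries (SD, n = 3 each; log2 1.74, adjusted p = 0.0130). asRNA:CR43906 on chromosome X, start to start with CG13377, rose 2.72-fold (log2 1.44, SE 0.296, adjusted p = 0.0200) and CG13377 2.93-fold (adjusted p = 0.00925). The call of asRNA:CR43906 was lost without knockdown replicate 1 or 3 or control replicate 1 or 2 (adjusted p of 0.0501 to 0.0751).

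For other increases the sense gene did not pass the test. asRNA:CR44168 (chromosome 2R, 23358478 to 23358961, minus strand, no intron) was at 2.36, 2.40 and 2.27 CPM in knockdown and 0.862, 0.759 and 0.719 CPM in control libraries, a narrow spread in both groups (log2 1.58, SE 0.228, adjusted p = 0.00774). Its sense gene CG34423, start to start with it, changed by a log2 of 0.54 (adjusted p = 0.134), and the log2 ratio of the pair was 1.05 higher in knockdown libraries (exact p = 0.1). asRNA:CR44047, inside the adenylosuccinate synthetase gene AdSS but with 12.6% of its exon bases over exons of that gene, was at 2.55, 2.60 and 2.59 CPM in knockdown and 1.07, 0.945 and 0.571 CPM in control libraries (log2 1.58, SE 0.294, adjusted p = 0.0148). AdSS was at 198.9 ± 6.35 CPM in knockdown and 172.1 ± 13.6 CPM in control libraries (log2 0.21, adjusted p = 0.253), and the ratio of the pair was 1.42 higher on the log2 scale (exact p = 0.1). The call of asRNA:CR44047 was lost without knockdown replicate 1 (adjusted p = 0.0543), and summed with AdSS its log2 value was 0.22 (adjusted p = 0.227). In the last of the 8 largest increases the sense gene passed as well. asRNA:CR45343, which encloses Peritrophin-15b, a gene named for a protein of the gut's peritrophic lining, averaged 1.73 ± 0.5 CPM in knockdown and 0.506 ± 0.263 CPM in control libraries (SD, n = 3 each; log2 1.77, adjusted p = 0.0492). Its call was lost without any library but control replicate 3 (adjusted p of 0.0539 to 0.155). Peritrophin-15b was at 0.458, 0.288 and 0.673 CPM in knockdown libraries, and in control libraries it was listed at 0 in replicates 1 and 2 and at 0.0614 CPM in replicate 3 (adjusted p = 0.0499).

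**Figure D3:**
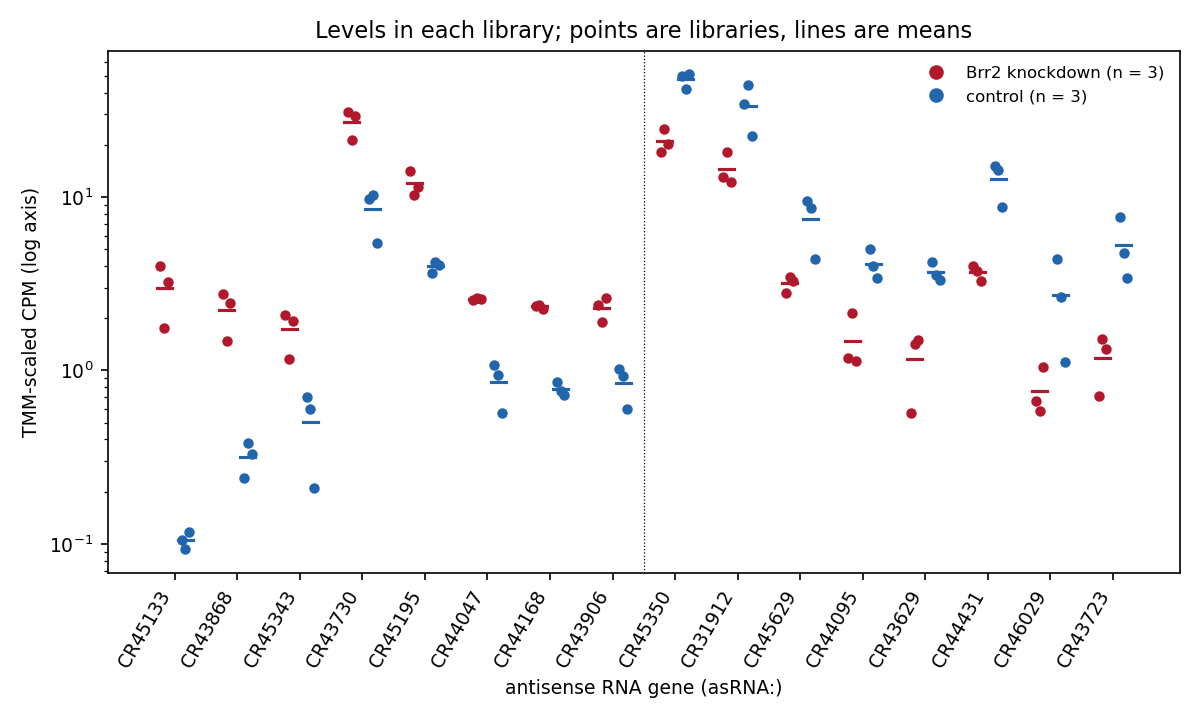
Scaled CPM on a log axis in each library for the 8 antisense RNA genes with the largest increases (left of the dotted line) and the 8 with the largest decreases (right), knockdown in red and control in blue, with lines at the means. In each of the 16 the 3 knockdown points lie wholly above or wholly below the 3 control points.

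The largest decrease among those that passed was that of asRNA:CR43723 (chromosome 2R, 7492364 to 7493497, plus strand, 1 intron). It was at 0.715, 1.51 and 1.32 CPM in knockdown libraries, against 7.65, 4.79 and 3.40 CPM in control libraries (log2 -2.16, SE 0.401, adjusted p = 0.0148). Its sense gene Coop, start to start with it, encodes a corepressor of Wingless signalling and fell too (log2 -1.16, SE 0.313, adjusted p = 0.0453). The log2 ratio of the pair was 0.95 lower in knockdown libraries, with no overlap (exact p = 0.1), and 19.9% of the antisense exon bases lay over exons of Coop. The call of asRNA:CR43723 was lost without knockdown replicate 1 (adjusted p = 0.0502) or control replicate 1 (adjusted p = 0.0504).

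In 5 further pairs among the largest decreases both genes fell. asRNA:CR44431 (chromosome X, 21043550 to 21044024, minus strand, no intron), inside the microsomal glutathione S-transferase gene Mgstl, was at 4.03, 3.75 and 3.27 CPM in knockdown and 15.2, 14.3 and 8.78 CPM in control libraries (log2 -1.79, SE 0.24, adjusted p = 0.00654). Mgstl was at 10.3, 9.01 and 8.14 CPM in knockdown and 33.3, 29.5 and 18.7 CPM in control libraries (log2 -1.57, SE 0.229, adjusted p = 0.00821). Control replicate 3 was the lowest control library for both. asRNA:CR45350 (chromosome 2R, 24024098 to 24025777, minus strand, no intron), start to start with the adenylate kinase gene Adk2, was at 18.2, 24.9 and 20.3 CPM in knockdown and 50.2, 42.3 and 51.0 CPM in control libraries (log2 -1.18, SE 0.155, adjusted p = 0.00619). Adk2 was at 23.7, 37.6 and 28.0 CPM in knockdown and 82.0, 77.7 and 86.1 CPM in control libraries (log2 -1.46, SE 0.182, adjusted p = 0.00545). Knockdown replicate 2 was the highest knockdown library for both. 

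The same was found for asRNA:CR43629 with CG31522, asRNA:CR45629 with CG15308 and asRNA:CR31912 with CG9171. Their log2 fold changes were -1.67 (adjusted p = 0.0273) against -1.32 (adjusted p = 0.0124), -1.24 (0.0333) against -1.63 (0.0257), and -1.22 (0.0255) against -1.0 (0.0147). asRNA:CR43629 shares 9.20% of its exon bases with exons of CG31522, against 42.7% and 73.2% in the other pairs. Their calls were less stable: asRNA:CR43629 lost its call without knockdown replicate 3 or control replicate 1 or 2 (adjusted p of 0.0543 to 0.0900), asRNA:CR45629 without any library but control replicate 3 (0.0581 to 0.120), and asRNA:CR31912 without knockdown replicate 1 or 3 or control replicate 1 or 2 (0.0792 to 0.1).

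For 2 of the largest decreases the sense gene did not pass the test. asRNA:CR44095 (chromosome 3R, 14568962 to 14569871, plus strand, 1 intron) encloses Cys, which encodes a cystatin-like inhibitor of cysteine proteases. The antisense gene was at 1.18, 2.14 and 1.14 CPM in knockdown and 5.03, 3.98 and 3.40 CPM in control libraries (log2 -1.48, SE 0.319, adjusted p = 0.0232). For Cys the log2 value was 0.36 (adjusted p = 0.382), and the log2 ratio of the pair was 1.91 lower in knockdown libraries (exact p = 0.1). The call of asRNA:CR44095 was lost without knockdown replicate 1 or 3 or control replicate 1 or 2 (adjusted p of 0.0672 to 0.0906). asRNA:CR46029, start to start with the guanylyl cyclase gene Gyc89Db, was at 0.669, 0.583 and 1.04 CPM in knockdown and 4.39, 2.66 and 1.11 CPM in control libraries (log2 -1.83, SE 0.512, adjusted p = 0.0498). It lost its call with a replicate block for the pairing of libraries (adjusted p = 0.0814) and without any library but control replicate 3 (0.0822 to 0.161). Gyc89Db was at 0.115 ± 0.0717 CPM in knockdown and 0.217 ± 0.167 CPM in control libraries (SD, n = 3 each; adjusted p = 0.467).

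Among the remaining 10 that passed, asRNA:CR45604, asRNA:CR45210, asRNA:CR45140, asRNA:CR44960, asRNA:CR46089, asRNA:CR31514 and asRNA:CR45214 rose 2.70-fold, 2.41-fold, 2.32-fold, 2.17-fold, 1.96-fold, 1.92-fold and 1.84-fold. asRNA:CR45968, asRNA:CR43864 and asRNA:CR45190 fell to 0.467, 0.585 and 0.620 of the control level. Of these 10 only asRNA:CR45968, end to end with CG11109 and with 98.4% of its exon bases over exons of that gene, kept its call without each single library; CG11109 also fell (log2 -1.40, adjusted p = 0.0158).

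In 1 pair, singled out after its values were seen, the genes changed in opposite directions and both passed. asRNA:CR46089 (chromosome 3R, 23052916 to 23057984, plus strand, no intron) overlaps end to end with CG17119, named Ctns in the annotation, the gene of the lysosomal cystine transporter cystinosin. The antisense gene was at 32.3, 22.7 and 20.9 CPM in knockdown and 13.7, 13.4 and 11.6 CPM in control libraries (log2 0.97, SE 0.19, adjusted p = 0.0170). CG17119 was at 13.5, 17.4 and 11.9 CPM in knockdown and 30.9, 24.6 and 30.0 CPM in control libraries (log2 -1.0, SE 0.177, adjusted p = 0.0130). The antisense gene was above the sense gene in every knockdown library and below it in every control library, and the log2 ratio differed by 1.96 (exact p = 0.1). For the summed pair the log2 value was -0.06 (adjusted p = 0.791). The call of asRNA:CR46089 was lost without control replicate 1 (adjusted p = 0.0535) or 2 (adjusted p = 0.0582). The pair of asRNA:CR45210 and nes, a lysophospholipid acyltransferase gene start to start with it, had log2 fold changes of 1.27 (adjusted p = 0.0168) and -0.47 (adjusted p = 0.0752), and a log2 ratio 1.76 higher in knockdown libraries (exact p = 0.1).

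Over the 139 pairs with both genes tested, log2 fold changes of antisense and sense genes had a Pearson correlation of 0.63 and a Spearman correlation of 0.56, and 96 pairs had the same sign. This is a description across genes that share libraries, position and possibly reads. The pairs include antisense genes that reached 1 unscaled CPM in 1 group only, such as asRNA:CR45133 and asRNA:CR43868. Large changes of such genes were favoured by the choice, while the protein-coding genes compared below were not chosen in this way. Correlations without these antisense genes are not given here. The same correlation between the antisense genes and the nearest tested protein-coding gene that did not overlap them, at a median distance of 499 bases, was 0.29 (Spearman 0.21). Over 2133 pairs of protein-coding genes that overlap on opposite strands it was 0.32 (Spearman 0.28). The differences between these correlations were not tested. By arrangement it was 0.75 with the antisense gene inside the sense gene (n = 63), 0.69 with the sense gene inside (n = 22), 0.66 start to start (n = 39) and 0.40 end to end (n = 15). It was 0.66 in the 50 pairs with at least 75% of the antisense exon bases over sense exons, and 0.72 in the 17 pairs with under 25%. Pairs with little exon overlap may still share reads of unspliced RNA.

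**Figure D4:**
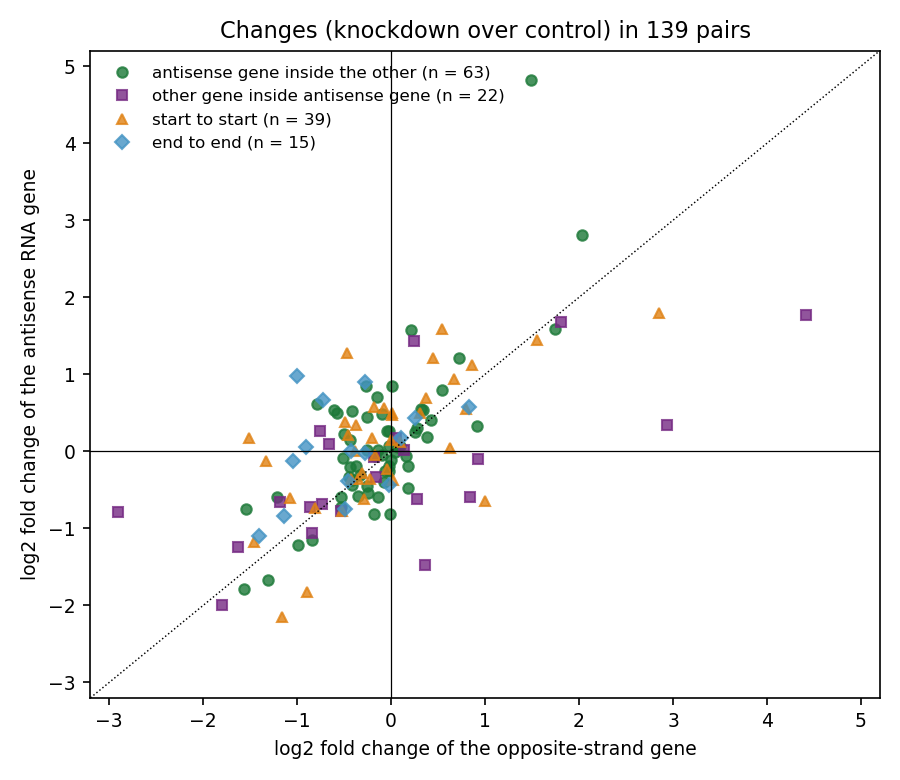
Log2 fold change (knockdown over control) of the antisense RNA gene against that of its sense gene for the 139 pairs tested, with a symbol for each arrangement and a dotted line of equal change. Of the pairs 96 have the same sign in both genes, while asRNA:CR45133 stands above it at 4.82 against 1.49.

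Of the 14 antisense genes that rose and had a tested sense gene, 6 had a sense gene that rose, 1 had one that fell and 7 had one that did not pass. Among the 6, asRNA:CR45133, asRNA:CR43868, asRNA:CR43906 and asRNA:CR45343 reached 1 unscaled CPM in knockdown only, so their passing was favoured by the choice. Of the 12 that fell, 8 had a sense gene that fell, 0 had one that rose and 4 had one that did not pass. Of the 137 distinct sense genes tested 34 passed, 12 higher and 22 lower, or 24.8% against 17.7% of all genes, with a median log2 fold change of -0.19. Leaving out a library lowered that count to 15 without knockdown replicate 1, 16 without knockdown replicate 3, 17 without control replicate 1 and 19 without control replicate 2, and scaling by total counts alone gave 63, of which 8 were higher and 55 lower. That scaling called 29.0% of all genes and shifted their log2 fold changes by a median of -0.34. The share of all genes called without 1 library is not given here.

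Levels per kb of exon also differed by arrangement. The antisense gene was above its sense gene in 47 of 145 pairs. With the antisense gene inside the sense gene this was so in 13 of 64 pairs, and the median ratio of antisense to sense level was 0.19. With the sense gene inside the antisense gene it was so in 16 of 26 pairs, with a median ratio of 1.5. Start to start it was so in 13 of 39 pairs (median 0.39) and end to end in 5 of 16 (median 0.30). The enclosing gene was thus the higher one in most pairs of either kind, as with asRNA:CR45778 over dUTPase (88.4 against 6.06 CPM per kb). Antisense genes were chosen by a mean of at least 1 unscaled CPM and sense genes were not, which favours higher ratios of antisense to sense level. The parts of this choice and of read assignment in these ratios were not tested.

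**Figure D5:**
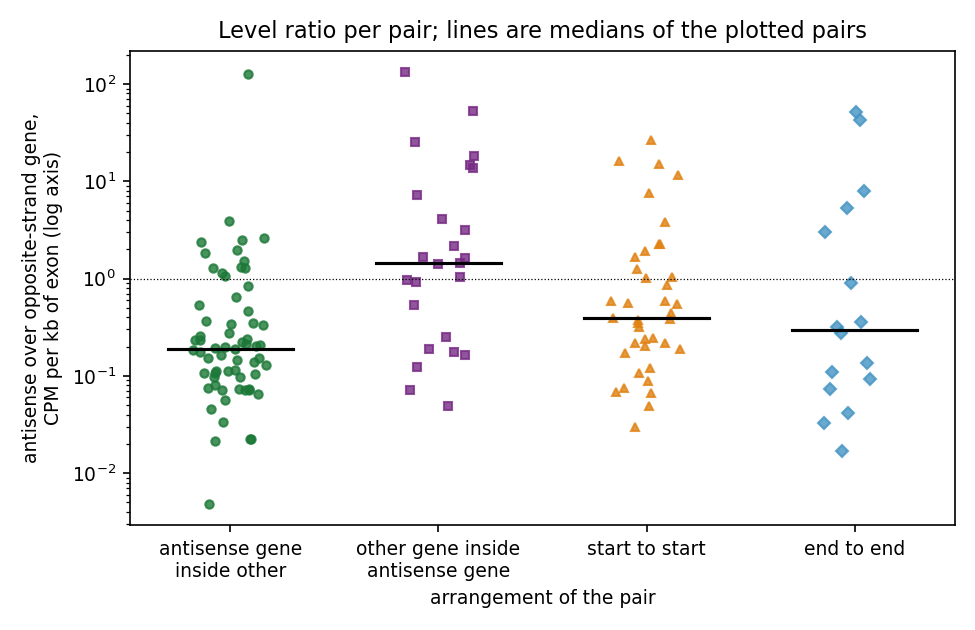
Ratio of antisense to sense level, both in CPM per kb of exon, on a log axis for each pair, grouped by how the 2 genes overlap, with lines at medians of the plotted pairs. Pairs with the sense gene inside the antisense gene lie highest; the pair of asRNA:CR44179 and CG5112, which is listed at 0, is not drawn.

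Summed over the 146 genes, antisense RNA genes held 0.0996% ± 0.00271 of all counts in knockdown libraries and 0.130% ± 0.00626 in control libraries (SD, n = 3 each; exact 2-sided permutation p = 0.1). On the TMM scale the sums were 1117 ± 17.3 CPM in knockdown and 1161 ± 75.3 CPM in control libraries, which overlapped (exact p = 0.5). As a share of gene counts without transposon copies they were 0.156% in knockdown and 0.167% in control libraries (exact p = 0.2).

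Both directions occurred in genes with and without introns. Of the 68 antisense genes with no intron 6 rose and 5 fell, of the 50 with 1 intron 4 rose and 5 fell, and of the 28 with 2 to 4 introns 5 rose and 2 fell. Over all genes tested 8.05% rose and 9.63% fell. The counts by class include the 7 genes that passed and reached 1 unscaled CPM in 1 group only. The median log2 fold changes of the classes were -0.06, 0.11 and 0.01.

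Of the machinery that acts on antisense RNA, 0 of 7 siRNA genes passed (Dcr-2, AGO2, r2d2, loqs, Hen1, trsn and Trax; edgeR quasi-likelihood test), with log2 fold changes from -0.29 to 0.07. Of these, 1 had an unadjusted p under 0.05, and 0 were called by DESeq2 or by limma voom. AGO2, the Argonaute protein of that pathway, was at 339.2 ± 18.5 CPM in knockdown and 413.6 ± 23.6 CPM in control libraries (SD, n = 3 each; log2 -0.29, adjusted p = 0.140). Of 11 genes of the RNA exosome and its helicase 1 passed: Mtr3, a subunit of the exosome ring, fell (log2 -0.96, adjusted p = 0.0241). The others, among them the nuclease genes Rrp6 (log2 0.26, adjusted p = 0.147) and Dis3 (log2 0.13, adjusted p = 0.520), did not pass. Among all genes tested 17.7% passed. With so few genes in each list the counts are not a result about this machinery, and not passing does not show that a gene was unchanged.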

How the data were processed

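RNA was measured per gene and transposon copy in 3 knockdown and 3 control libraries, grouped by their labels. The deposited values are estimated counts in whole numbers. Per the submitters' processing notes, Trimmomatic, TopHat2 and the BDGP6 build were used; the sources used here do not state versions, the counting tool, its use of strand or its handling of reads with several matches. Counts were fitted as deposited with edgeR 4.0.16 in R 4.3.3 (filterByExpr, TMM, quasi-likelihood test without a block), and p-values were adjusted by Benjamini-Hochberg over 14167 features at 0.05. SE is the log2 fold change divided by the square root of F. Ratios within pairs used counts plus 0.5 and exact 2-sided permutation tests that did not use the pairing of libraries, which cannot go below 0.1. Positions and overlaps come from Ensembl release 115. DESeq2 1.42.0 and limma 3.58.1 served as alternatives.

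Same-numbered libraries deviated together (correlations of 0.16 to 0.317, against -0.229 to 0.0506 for other numbers), so the numbers were taken to pair the libraries, although the labels state no pairing. On simulated data for this comparison with 14167 features, the test recovered 18% of 100 simulated 2-fold changes and 68% of 100 simulated 4-fold changes, and called 6 unchanged features. Replicates differed by more than counting noise. Named with values are the 8 largest called changes in each direction, the 6 highest levels and their sense genes, and other called genes by fold only; asRNA:CR46089, asRNA:CR45210 and asRNA:CR45968 were described further after their values were seen. The members and lists were chosen with earlier results of these data known.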

Additional observations from a re-analysis of the deposited data

How the results depend on the processing

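The change of Brr2 kept its direction and side of the threshold under every alternative run. The 27 antisense RNA genes called became 44 with total counts as the only scaling (12 higher, 32 lower), where 29.0% of all genes were called. They became 16 with no filter, 13 of 51 with a minimum mean of 5 CPM, and 41 with DESeq2, which called all 27. Leaving out 1 library gave 10 to 27. For the other settings here and below, the share of all genes called is not given. Their counts are therefore not a result about antisense or sense genes. Sense genes called were 63 with total counts only (34 in the report) and 15 to 35 without 1 library. The median log2 fold change of antisense genes was -0.32 with total counts only. The difference in their share of all counts, -0.0306 percentage points, was -0.0102 over gene counts only and -0.0238 without the gene of highest count. With a replicate block 32 antisense genes (19 higher, 13 lower) and 46 sense genes were called; among the named antisense genes it changed no call but that of asRNA:CR46029. Without 1 library the log2 change of asRNA:CR45874 ran from -0.31 to 0.01 (without control replicate 1) and that of asRNA:CR46485 from -0.08 (without knockdown replicate 1) to 0.13, with -0.07 without control replicate 2. The change of asRNA:CR46485 was -0.33 with total counts only and -0.0039 with DESeq2. That of asRNA:CR44179 was 0.0036 with upper quartile scaling. Chosen after seeing the data, counts summed with the sense gene kept 19 of the 27 calls and turned asRNA:CR46089 to -0.06, asRNA:CR44095 to 0.18 and asRNA:CR45210 to -0.4. The causes were not tested. Most 2-fold changes were missed in simulated data with few changed features, which does not give the share missed in the real comparison.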

Other observations

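Chromosome 4, the small and largely heterochromatic fly chromosome, held 6 of the 146 antisense RNA genes, or 4.11%, against 2.0% of all antisense RNA genes listed and 0.871% of tested genes of any kind. This was noticed in the data and was not tested.

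Antisense RNA genes varied more between replicates than other genes did at the median. The highest over the lowest level within the knockdown group had a median of 1.42 for antisense RNA genes and 1.28 for all genes at 1 CPM or more, and within the control group 1.49 and 1.34. Antisense RNA genes are lower in level than many genes, and the part of level in this was not tested. The range was above 3-fold for 7 of them in knockdown and 9 in control libraries. These counts leave out asRNA:CR44992 in knockdown and asRNA:CR45926 in control libraries, each listed at 0 in 1 library and thus without a ratio.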
